A study of Mus musculus with 12 samples.

Results

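Gene expression was compared between genotypes in 8 of 12 laser-captured mouse atrioventricular node libraries, those in which mitochondrially encoded genes held over 50% of the summed signal. The 8 were chosen by that measured share, with ribosomal RNA of the mitochondrion counted in it. They are 4 wild-type libraries (WT 3, WT 4, WT 5 and WT 6) and 4 heterozygous ones (HET 4, HET 5, HET 6 and HET 7). All pups were of the FVB/NJ strain and carried a BAC-Tbx3-GFP transgene, so that the node could be found by its fluorescence in both genotypes. The heterozygotes had in addition 1 Tbx3 allele with CreERT2, and no treatment was given to either group. WT 3, WT 4, HET 4, HET 5 and HET 7 were of neonatal day 10, and WT 5, WT 6 and HET 6 were of day 8. The labels do not state that each library came from another pup, so the p-values may measure a spread that is partly technical. The node was located by a Tbx3-driven reporter, so the captured area and the measured amount of Tbx3 are linked.

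The atrioventricular node delays the impulse between atria and ventricles. Its cells have slow, calcium-driven action potentials and spontaneous depolarisation, in part through Hcn4, the main pacemaker channel of the heart. Tbx3, a T-box factor, represses chamber genes in conduction tissue. The question addressed is which transcripts of the node differ when 1 Tbx3 allele is modified.

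In these 8 libraries Itga9, an integrin alpha subunit that pairs with the integrin beta 1 chain, was the only gene of 15757 that passed the test of genotype, and it rose 3.29-fold in heterozygotes. Hcn4 and Cacna2d2, an auxiliary subunit of voltage-gated calcium channels, had lower means in heterozygotes, and Ryr2, through which muscle cells release stored calcium, had a higher mean, but none of these 3 passed after adjustment over all genes. Of the 21 nodal genes tested, 19 had a lower mean log2 value in heterozygotes and 0 passed. The groups of Hcn4, Ryr2 and Itga9 did not overlap, which held for 493 (3.13%) of all genes tested. These 4 genes were singled out with earlier results of the same data known.

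The sequences around the starts of Hcn4, Cacna2d2 and Ryr2 are shown because these 3 of the 4 genes encode channels or a channel subunit. They are the 300-base windows of RefSeq on GRCm38.p6, 5′ to 3′ on the gene's strand, at chr9:58822699-58822998 (plus strand) for Hcn4, chr9:107399630-107399929 (plus strand) for Cacna2d2 and chr13:12106896-12107195 (minus strand) for Ryr2. Capitals mark matches on either strand to GGTGT, the core of the T-box element, which reads ACACC on the other strand.
Hcn4: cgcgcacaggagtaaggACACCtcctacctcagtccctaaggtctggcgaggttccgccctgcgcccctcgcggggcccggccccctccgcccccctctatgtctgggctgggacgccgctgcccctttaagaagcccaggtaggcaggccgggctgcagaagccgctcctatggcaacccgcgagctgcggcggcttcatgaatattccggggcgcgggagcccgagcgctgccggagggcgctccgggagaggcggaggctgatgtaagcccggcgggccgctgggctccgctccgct
Cacna2d2: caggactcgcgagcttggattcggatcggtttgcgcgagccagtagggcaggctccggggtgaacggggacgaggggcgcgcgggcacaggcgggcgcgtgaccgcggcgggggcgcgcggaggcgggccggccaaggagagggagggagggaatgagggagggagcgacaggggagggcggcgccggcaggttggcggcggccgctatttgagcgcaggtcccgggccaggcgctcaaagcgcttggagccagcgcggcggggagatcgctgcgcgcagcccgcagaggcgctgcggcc
Ryr2: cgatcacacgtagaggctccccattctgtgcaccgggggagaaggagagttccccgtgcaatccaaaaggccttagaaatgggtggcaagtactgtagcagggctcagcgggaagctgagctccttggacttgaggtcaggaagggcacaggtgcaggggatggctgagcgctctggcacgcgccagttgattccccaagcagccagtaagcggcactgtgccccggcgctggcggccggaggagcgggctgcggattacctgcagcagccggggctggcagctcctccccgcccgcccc
The RefSeq starts of Hcn4, Cacna2d2 and Ryr2 lie −463, 268 and 0 bases from those of the gene models used for their coordinates, with negative values upstream. The Hcn4 window held 1 match and the windows of Cacna2d2 and Ryr2 held 0. GGTGT was present in 41.6% of all 32851 promoter windows in the table and in 39.3% of the 13345 windows of genes tested here. The longer forms GGTGTG and GGTGTGA, which contain the core and were searched on both strands too, were in 19.0% and 3.98% of all windows and in none of these 3. A match is a description of the letters only. The table's window for Itga9 starts 105002 bases inside the gene model used for its coordinates and is not shown.

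The share that chose the libraries was 55.4% in WT 3, 53.3% in WT 4, 58.4% in WT 5 and 56.1% in WT 6. It was 66.5% in HET 4, 57.0% in HET 5, 55.9% in HET 6 and 72.0% in HET 7. HET 4 and HET 7 therefore lay above every wild-type library, while HET 5 and HET 6 lay within their range. Just inside the threshold was WT 4 with 53.3%, and just outside it was HET 2 with 45.2%. The libraries under the threshold, all of day 8, were WT 1 (41.8%), WT 2 (43.8%), HET 2 and HET 3 (36.3%). Mitochondrial ribosomal RNA made up most of the share, between 46.4% and 61.1% of the signal, and the coding genes of the mitochondrion held between 6.66% and 10.8%. All 13 mitochondrial coding genes had a higher mean log2 value in heterozygotes of the 8, with a median difference of 0.64, which the choice of libraries can shape and which is given without a test.

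**Figure D1:**
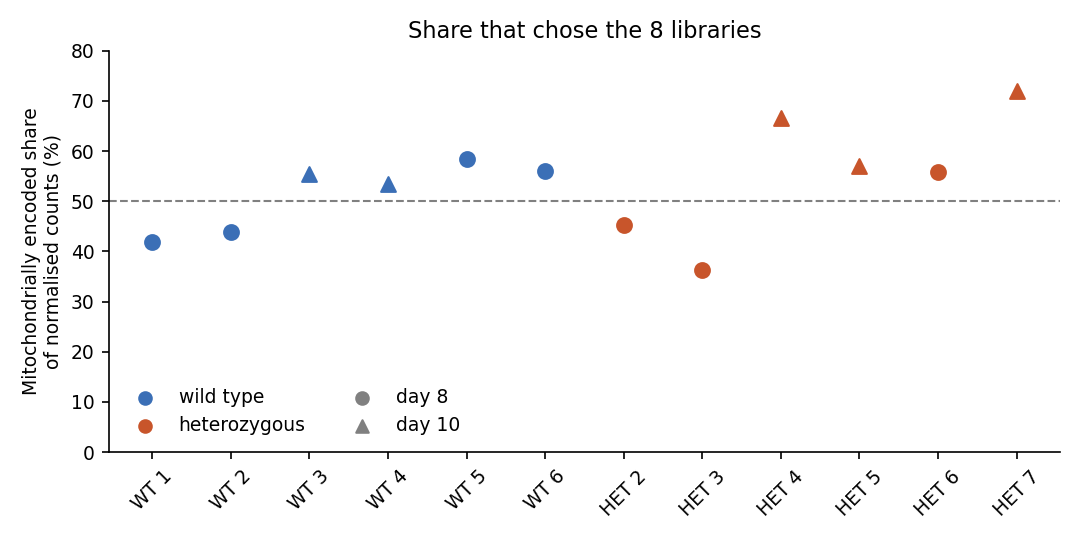
Share of the summed normalised counts held by mitochondrially encoded genes (percent, vertical axis) in each of the 12 libraries (horizontal axis), blue for wild type and orange for heterozygous, with circles for day 8 and triangles for day 10. The dashed line is the 50% threshold: the 8 libraries above it run from 53.3% to 72.0% and the 4 below it from 36.3% to 45.2%.

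The 8 libraries held between 20400165 and 25665293 reads in genes, of which 7188469 to 10921307 lay outside mitochondrial genes. The deposited values are read counts divided by a size factor, called normalised counts here, and 1 read was worth between 1.02 and 1.73 of them. A gene at 3 reads thus had at most 5.19 normalised counts, and lower values were not distinguishable from 0 at this depth. Y-linked genes were high in WT 4 and HET 4 among the 8, 1 library of each genotype. Over all genes tested the correlation of log2 values between 2 of these libraries ran from 0.775 to 0.895, and HET 7 had the lowest median correlation with the others, 0.791. The median log2 difference of all genes was −0.02 as deposited and −0.10 when values were scaled to the reads outside mitochondrial genes, and under that scaling the share of genes with a higher value in heterozygotes went from 48.7% to 42.2%.

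Tbx3 (ENSMUSG00000018604, chromosome 5, 119670669 to 119684724, GRCm38) was measured first, as the modified gene. It was at 6984 normalised counts in WT 3, 6312 in WT 4, 7924 in WT 5 and 7143 in WT 6. In heterozygotes it was at 4668 in HET 4, 3862 in HET 5, 6571 in HET 6 and 7777 in HET 7. HET 4 and HET 5 lay below all wild-type libraries, whereas HET 6 and HET 7 lay among them. The means were 7091 ± 662 and 5720 ± 1781 (SD, n = 4 each), a log2 difference of −0.36 ± 0.22 (SE) with a 95% interval from −0.82 to 0.105 (limma, adjusted p = 0.883). The two-sided exact permutation p for Tbx3 was 0.257, where 4 against 4 libraries can give no less than 0.0286. A count per gene does not separate reads of the modified allele, the intact allele and the transgene, so Tbx3 does not check the genotype labels. Its antisense neighbour Tbx3os1, which overlaps it and was named after its values were seen, had means of 136 ± 80.4 and 59.8 ± 46.4 normalised counts in wild type and heterozygotes, and counting is not stated to use strand.

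Itga9 (ENSMUSG00000039115, chromosome 9, 118606690 to 118901003) encodes the alpha 9 integrin subunit, a receptor chain for tenascin C, osteopontin and other matrix or surface proteins. It was at 1029, 975, 878 and 767 normalised counts in WT 3, WT 4, WT 5 and WT 6. In HET 4, HET 5, HET 6 and HET 7 it was at 3930, 3290, 2728 and 2063. The lowest heterozygous library stood above the highest wild-type one by more than the whole wild-type range. The means were 912 ± 115 and 3003 ± 796 (SD, n = 4 each), and the log2 difference was 1.69 ± 0.24 (SE, 95% interval 1.19 to 2.19; limma, adjusted p = 0.0423). Itga9 was thus 1 of 1 genes called, 0.00635% of those tested, and the called gene was higher in heterozygotes (again 0.00635%). The two-sided exact permutation p was 0.0286, the smallest these libraries can give, which every gene without overlap reaches. Leaving out HET 7 gave an adjusted p of 0.0140, and leaving out any other single library took it past the threshold, to between 0.0976 without WT 3 and 0.352 without HET 4, with log2 differences of 1.54 to 1.85 over all 8 omissions. With edgeR the adjusted p of Itga9 was 0.0879 and with the mitochondrial share as a term it was 0.178, within a range of 8.88e-08 (DESeq2) to 0.999 over 28 alternatives.

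Among HET 5 and HET 6, whose mitochondrial share lay within the wild-type range, the log2 difference of Itga9 from the 4 wild-type libraries was 1.72, as large as in all 8, with an adjusted p of 0.264 from 6 libraries. At day 10 alone it was 1.58 (2 against 3 libraries, adjusted p = 0.991). Day 8 holds only HET 6 of the heterozygotes, at 2728 normalised counts beside 878 and 767 in wild type. With an age term in the limma fit of the 8 libraries the log2 difference was 1.63 (adjusted p = 0.108). With the mitochondrial share as a term it was 1.83 (limma, adjusted p = 0.178), so Itga9 did not pass with either term. The part of age or of the mitochondrial share in the difference was not tested beyond these values.

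Hcn4 (ENSMUSG00000032338, chromosome 9, 58823412 to 58863175) was at 1451, 3891, 2147 and 3656 normalised counts in WT 3, WT 4, WT 5 and WT 6. In HET 4, HET 5, HET 6 and HET 7 it was at 614, 905, 845 and 832. The heterozygous libraries lay close together, all below the lowest wild-type library, and wild type was spread widely. The means of Hcn4 were 2786 ± 1179 and 799 ± 128 (SD, n = 4 each), 3.49-fold lower in heterozygotes, with a log2 difference of −1.70 ± 0.30 (SE, 95% interval −2.34 to −1.07). This did not pass after adjustment (limma, adjusted p = 0.226). The two-sided exact permutation p was 0.0286, which only restates that the groups did not overlap. DESeq2, run on whole reads recovered from the deposited values, called Hcn4 (adjusted p = 6.01e-05) and edgeR did not (0.362), within a range of 6.01e-05 to 0.999 over 28 alternatives. In bulk tissue, fewer cells of a type and less RNA per cell cannot be told apart.

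Cacna2d2 (ENSMUSG00000010066, chromosome 9, 107399612 to 107529343) was at 8305, 12450, 15058 and 14452 normalised counts in WT 3 to WT 6 and at 4461, 3297, 5806 and 9112 in HET 4 to HET 7. HET 7 lay above WT 3, so the groups overlapped, and the other 3 heterozygous libraries lay below all wild-type ones. The means were 12566 ± 3052 and 5669 ± 2514 (SD, n = 4 each), with a log2 difference of −1.21 ± 0.28 (SE; limma, adjusted p = 0.654; two-sided exact permutation p = 0.0571).

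Ryr2 (ENSMUSG00000021313, chromosome 13, 11553102 to 12106945) was at 10600, 8282, 7100 and 6786 normalised counts in WT 3 to WT 6 and at 16084, 15192, 13039 and 15319 in HET 4 to HET 7. Every heterozygous value exceeded every wild-type value. The means were 8192 ± 1730 and 14908 ± 1307 (SD, n = 4 each), 1.82-fold higher in heterozygotes, with a log2 difference of 0.88 ± 0.18 (SE; limma, adjusted p = 0.582; two-sided exact permutation p = 0.0286). As for Hcn4, the permutation p only restates the lack of overlap. DESeq2 called Ryr2 (adjusted p = 0.0300) and edgeR did not (0.793), within a range of 0.0300 to 0.999 over 28 alternatives.

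Day 10 libraries alone gave log2 differences of −1.62 for Hcn4, −0.99 for Cacna2d2 and 0.73 for Ryr2. With HET 5 and HET 6 as the only heterozygotes they were −1.56, −1.48 and 0.80, and none of these 6 values passed. Each kept the sign of the 8-library value.

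**Figure D2:**
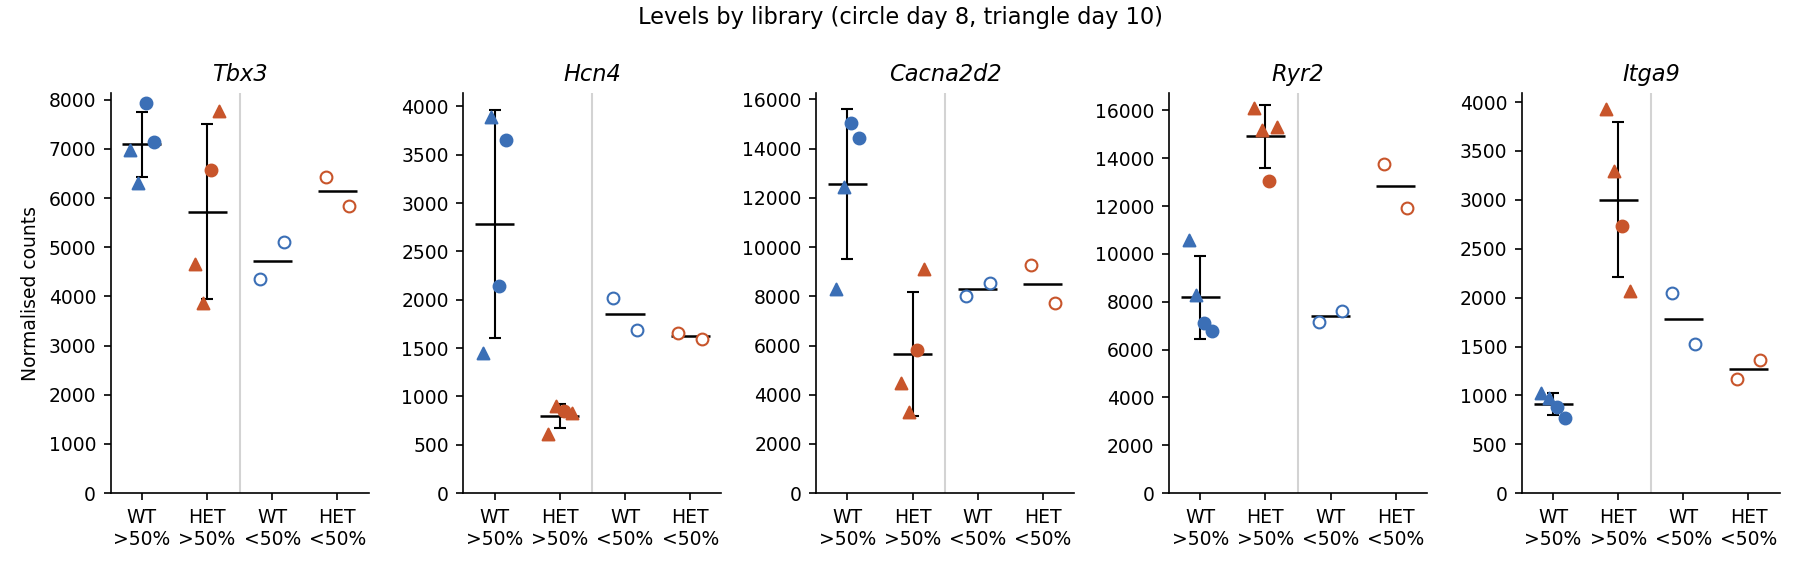
Normalised counts (vertical axes, starting at 0) of Tbx3, Hcn4, Cacna2d2, Ryr2 and Itga9 in single libraries by genotype, with the 8 libraries over 50% mitochondrial signal as filled points and the 4 under 50% as open points. Horizontal bars are means and error bars are SD (n = 4 per group, left of the grey line); circles are day 8 and triangles day 10. Over 50% the genotypes do not overlap for Hcn4, Ryr2 and Itga9, and under 50% Itga9 lies lower in heterozygotes.

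The pattern of Hcn4 across the 8 libraries was shared most closely by Rasd2, Oprd1, Mrpl19, Slc16a12 and Hfe2, among 9423 named genes with a mean of at least 50, by Spearman's rho. The rho of Rasd2 was 1, that of Oprd1 and Mrpl19 was 0.976, and that of Slc16a12 and Hfe2 was 0.952. Ryr2 was matched most closely by Pih1d1, Gimap4, Plk2, Stradb and Orc4, each with a rho of 0.976. Between the listed genes rho was −0.905 for Hcn4 with Ryr2, 0.929 for Ryr2 with Itga9 and −0.833 for Hcn4 with Itga9, against 0.214 for Hcn4 with Tbx3. These values are descriptions over 8 points that share genotype and library scale.

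Over all genes, 908 had an unadjusted p under 0.05 with limma and 936 with edgeR, which called 0 genes after adjustment. They divided into 440 higher (2.79% of those tested) and 468 lower (2.97%) in heterozygotes. Groups did not overlap for 493 genes (3.13%), 238 of them higher (1.51%) and 255 lower (1.62%). DESeq2 called 32 genes, 17 higher and 15 lower, and left 596 adjusted p-values missing, while limma with voom weights called 1.

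**Figure D3:**
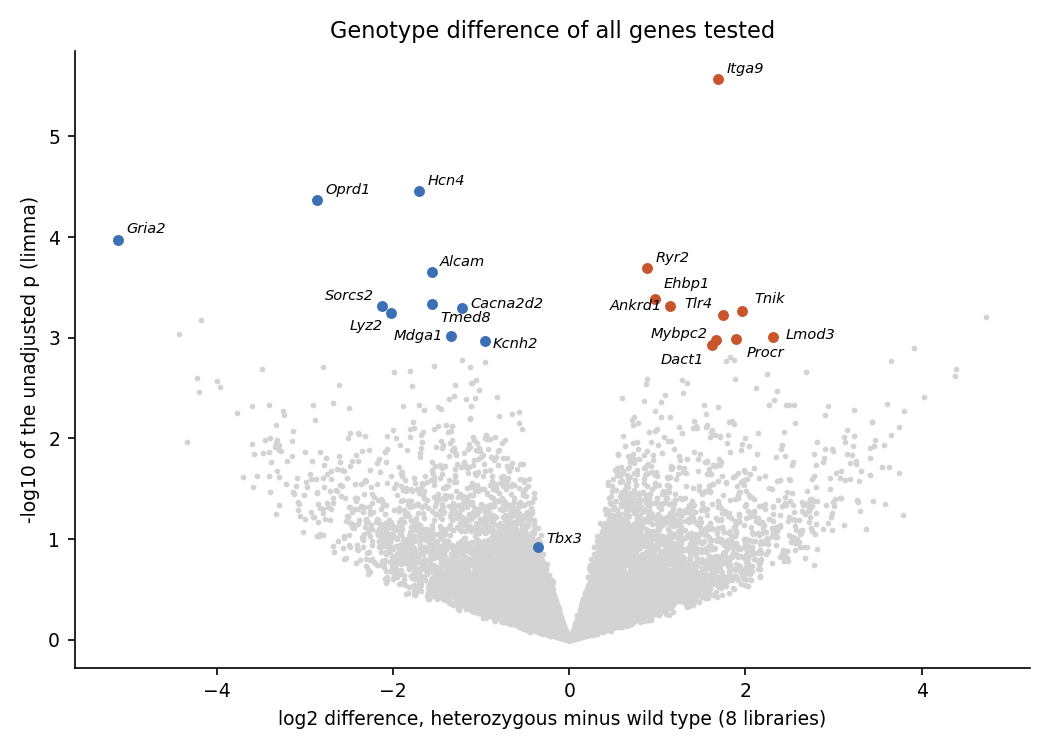
Log2 difference, heterozygous minus wild type, in the 8 libraries (horizontal axis) against −log10 of the unadjusted limma p (vertical axis), 1 point per gene for 15757 genes. Orange and blue points are named genes with a higher or lower value in heterozygotes; Itga9 is the highest point and the only one past the adjusted threshold, and Tbx3 lies near the foot.

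None of the other genes with the smallest p passed, so their values are given as measured. Oprd1, the delta opioid receptor, was at 244, 416, 353 and 668 normalised counts in WT 3 to WT 6 and at 28.9, 114, 73.2 and 32.9 in HET 4 to HET 7 (log2 difference −2.87 ± 0.51, SE; limma, adjusted p = 0.226). Gria2, an AMPA-type glutamate receptor subunit, was at 155, 75.2, 172 and 199 in wild type and at 0, 4.13, 1.02 and 25.9 in heterozygotes. HET 4, HET 5 and HET 6 of Gria2 were thus at or under 4 reads, and HET 7 was the highest of the heterozygotes but below every wild-type library. Alcam, a cell adhesion molecule of the immunoglobulin family, was at 1795, 1796, 2157 and 2171 in wild type and at 381, 472, 841 and 1300 in heterozygotes, and the groups did not overlap. Kcnh2, the channel of the rapid delayed rectifier current, had means of 1590 ± 359 and 810 ± 142 (SD, n = 4 each), again without overlap. Tmed8, Sorcs2, Lyz2 and Mdga1 had lower values as well, with log2 differences of −1.55, −2.13, −2.02 and −1.34 and with all 4 heterozygous libraries below all wild-type ones.

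Ankrd1, Lmod3 and Mybpc2 were among those with higher values in heterozygotes. Ankrd1, a stress-responsive protein of the sarcomere and nucleus, was at 7575, 5507, 6875 and 3203 normalised counts in WT 3 to WT 6 and at 16303, 9641, 14137 and 9956 in HET 4 to HET 7. Lmod3, a nucleator of actin filaments in striated muscle, was at 217, 178, 34.6 and 98.7 in wild type and at 1065, 790, 433 and 228 in heterozygotes. Mybpc2, the fast skeletal form of myosin binding protein C, was at 175, 59.3, 97.5 and 136 in wild type and at 246, 440, 400 and 329 in heterozygotes. The groups of all 3 were separate. Ehbp1, Tnik, Tlr4, Procr and Dact1 were separate as well, with log2 differences of 0.97, 1.96, 1.74, 1.89 and 1.62. Tlr4 is an innate immune receptor, Procr the endothelial protein C receptor, and Dact1 a modulator of Wnt signalling. With limma the adjusted p over all genes ran from 0.226 for Oprd1 to 0.805 for Dact1 over these lower and higher genes.

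**Figure D4:**
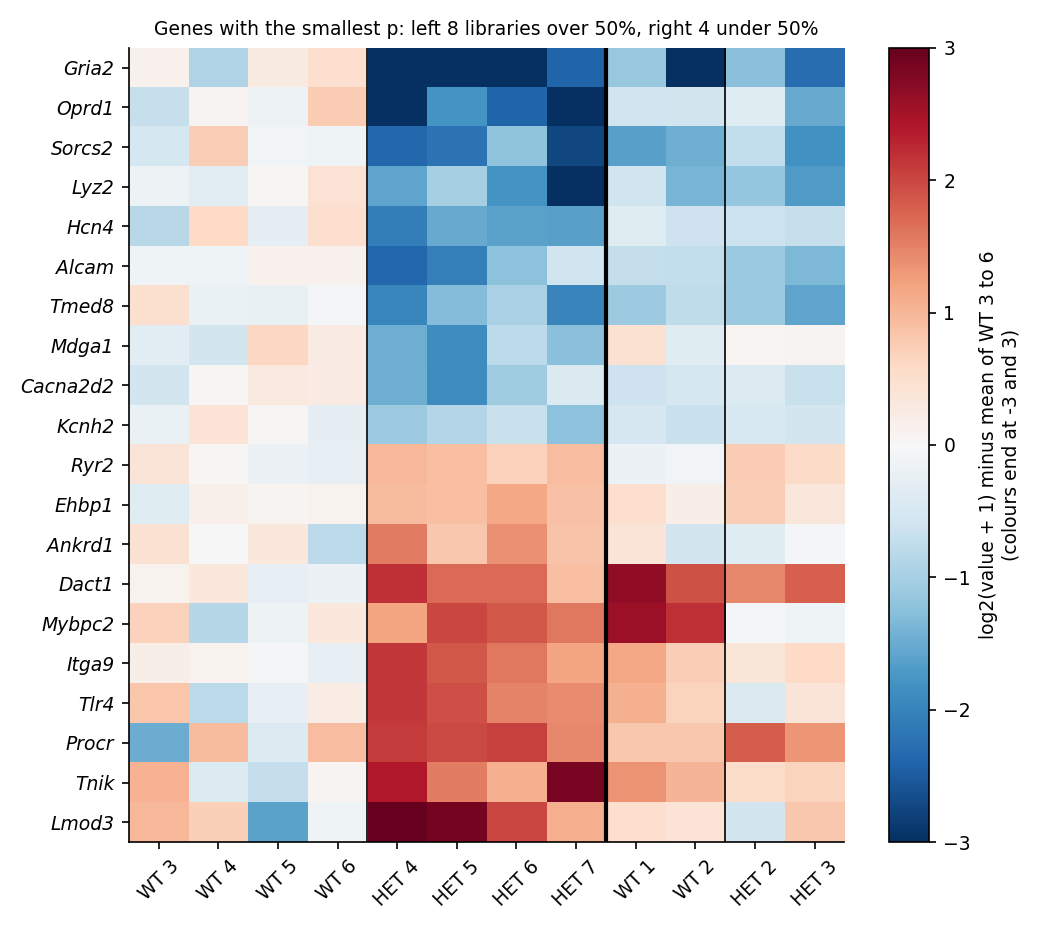
Log2(value + 1) minus the mean of WT 3 to WT 6 (colour, limits −3 and 3) for the 20 named genes with the smallest p in the 8 libraries (rows) in each of 12 libraries (columns), with the 8 libraries over 50% left of the thick line and the 4 under 50% right of it. The opposite colours of wild type and heterozygotes on the left are what the rows were chosen for. On the right Mybpc2, Itga9, Tlr4, Tnik and Dact1, higher in heterozygotes on the left, show higher values in WT 1 and WT 2 than in HET 2 and HET 3. Hcn4, Alcam, Tmed8, Ryr2 and Procr are separate on the right in the same order as on the left.

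Of 24 nodal genes, 21 were tested, and Hcn2, Gjd3 and Isl1 were too low. Isl1 was at 0 in all 8 libraries, while each of the other 23 had reads in some library. A lower value in heterozygotes was measured for 19 and a higher one for 2, Shox2 and Tbx18 (named after their values were seen), with a median log2 difference of −0.46 beside −0.02 over all genes. None passed, 5 had an unadjusted p under 0.05, all lower, and the groups of Hcn4, Ntm and Igfbp5 did not overlap. That is 3 of 21 members beside 1.62% of all genes in this direction. The summed level of the nodal list was 61044 to 84471 normalised counts over wild-type libraries and 38330 to 65046 over heterozygous ones, and only HET 7 reached the wild-type range.

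The L-type and T-type calcium channels of the list, named after their values were seen, varied between heterozygous libraries. Cacna1d, the L-type channel of pacemaker cells, was at 3219, 3276, 4318 and 3146 normalised counts in WT 3 to WT 6 and at 2498, 1417, 2442 and 4664 in HET 4 to HET 7. HET 4, HET 5 and HET 6 lay below all wild-type libraries and HET 7 above all of them. The T-type channels Cacna1g and Cacna1h had log2 differences of −0.56 ± 0.26 and −0.67 ± 0.33 (SE), with overlap. Gjc1, the low-conductance connexin of the node, had a difference of −0.63 ± 0.32.

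Ntm, a cell adhesion protein of the immunoglobulin superfamily, was at 2790, 1692, 2528 and 2448 normalised counts in WT 3 to WT 6 and at 1544, 238, 1409 and 1477 in HET 4 to HET 7, and was named after its values were seen. Igfbp5, a binding protein of insulin-like growth factors, was at 18468, 29640, 23454 and 24403 in wild type and at 17308, 15737, 13374 and 17756 in heterozygotes. In both genes the lowest wild-type library stood just above the highest heterozygous one. The 4 libraries under 50% had a median log2 difference of 0.08 over the same 21 nodal genes, with 14 higher and 7 lower.

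**Figure D5:**
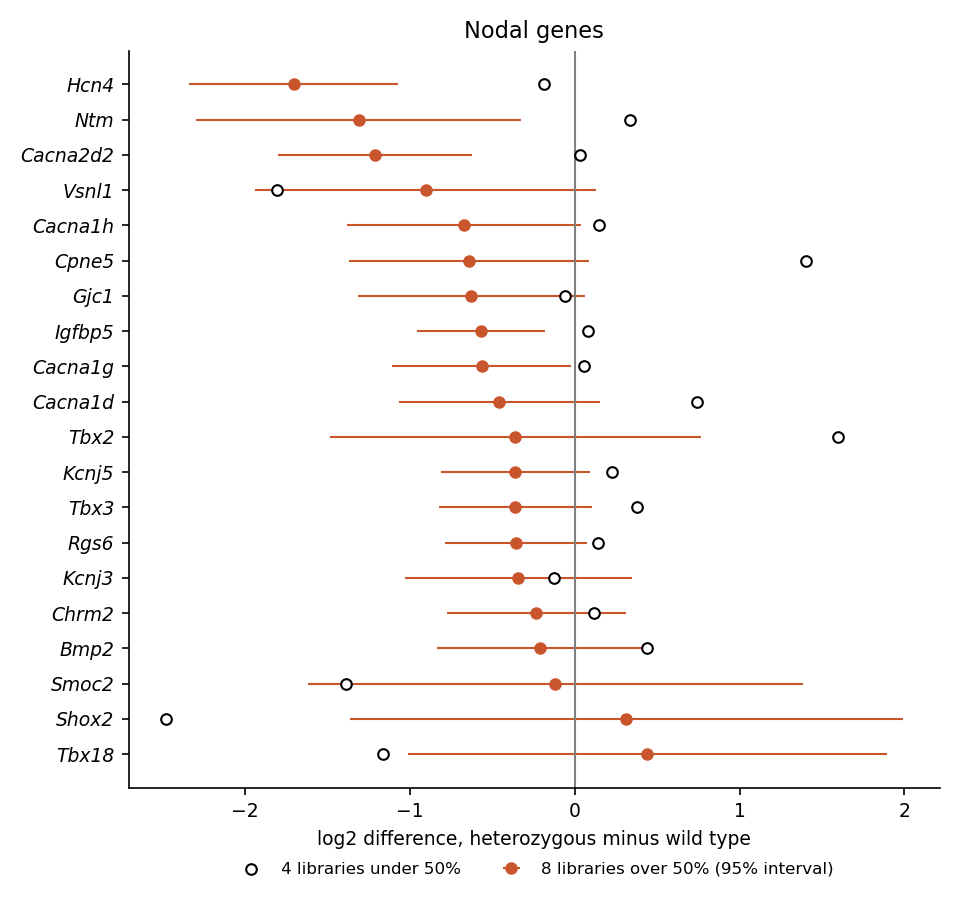
Log2 difference, heterozygous minus wild type (horizontal axis), of 20 of the 21 nodal genes tested (rows). Filled orange points and lines are the value and 95% interval in the 8 libraries over 50% (4 against 4), and open points are the value in the 4 libraries under 50% (2 against 2). Filled points lie left of 0 for 18 genes; open points lie left of 0 for 7.

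Of 23 cardiac transcription factors tested, 17 were lower and 6 higher (median −0.26), 2 had an unadjusted p under 0.05, both lower, and 0 passed. Hand1 was at 120, 16.0, 66.1 and 64.1 normalised counts in WT 3 to WT 6 and at 3.04, 1.03, 37.6 and 1.73 in HET 4 to HET 7, where 3 libraries were under the limit of 5.19 given for 3 reads. Etv1, a factor of fast-conducting myocardium, was at 4378, 3615, 4799 and 5901 in wild type and at 1448, 1408, 2508 and 5818 in heterozygotes, HET 7 again standing with wild type. Nkx2-5, a core cardiac factor, had means of 142 ± 52.7 and 67.7 ± 29.4 (SD, n = 4 each), with overlap.

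Of 19 genes of working myocardium, 11 were higher and 8 lower (median 0.14), and 0 passed. Gja5, the fast-conducting connexin of atria and of the ventricular conduction system, was at 296, 271, 156 and 161 normalised counts in WT 3 to WT 6 and at 44.1, 126, 43.7 and 145 in HET 4 to HET 7. Stard10 had means of 257 ± 86.7 and 105 ± 40.9, and Kcnj2, the main inward rectifier of working muscle, 263 ± 96.2 and 101 ± 48.2 (SD, n = 4 each). The groups of Gja5 and Stard10 were separate and those of Kcnj2 overlapped. The list's other member without overlap was higher in heterozygotes, namely Myl2, the ventricular regulatory light chain, with means of 3828 ± 203 and 4776 ± 693, named after its values were seen. These 3 of 19 members stand beside 3.13% of all genes. Of 10 sodium channel genes 5 were higher and 5 lower, with none past an unadjusted p of 0.05.

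Calcium handling genes divided into 13 higher and 10 lower of 23 (median 0.02), with groups apart in 1 member, Ryr2, beside 3.13% of all genes. Slc8a1, the sodium-calcium exchanger, had a log2 difference of −0.49 ± 0.21 (SE). Of 19 potassium channel genes, 8 were higher and 11 lower (median −0.29), and 2 of 19 had groups without overlap, beside 3.13% of all genes. One was Kcnh2, and the other was Kcne1, the beta subunit of the slow delayed rectifier, at 1511, 1585, 1295 and 1266 normalised counts in WT 3 to WT 6 and at 1840, 2674, 1868 and 3064 in HET 4 to HET 7. None of these genes passed after adjustment.

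Sarcomere genes were higher in 19 and lower in 8 of 27 (median 0.23), with 2 at an unadjusted p under 0.05, both higher, and 0 passing. Myl2 was the 1 member of the 27 without overlap, beside 3.13% of all genes. Xirp2, an actin-binding protein of the intercalated disc, was at 23901, 4637, 3959 and 2729 normalised counts in WT 3 to WT 6 and at 19113, 36773, 10085 and 9570 in HET 4 to HET 7, so that WT 3 stood among the heterozygotes. Des, the muscle intermediate filament, and Tnnc1, cardiac troponin C, had log2 differences of 0.47 ± 0.21 and 0.55 ± 0.27 (SE). Of 17 genes of gap junctions and the intercalated disc, 10 were higher and 7 lower (median 0.10). Pkp2, a plakophilin of the desmosome, was at 1780, 1289, 2332 and 1684 in wild type and at 2293, 2524, 2468 and 6544 in heterozygotes, where HET 7 stood apart. Nexn, a Z-disc protein, was also at its highest in HET 7, 32946 against 10393 to 15474 in wild type.

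Itga9 was 1 of 24 integrin genes tested, of which 13 were higher and 11 lower (median 0.17), and no other integrin passed. Its partner Itgb1, named after its values were seen, had a log2 difference of 0.16 ± 0.18 (SE), with means of 3485 ± 379 and 3884 ± 454 normalised counts (SD, n = 4 each). Itga3, a laminin receptor chain, was at 152, 318, 296 and 202 in WT 3 to WT 6 and at 56.2, 69.2, 192 and 125 in HET 4 to HET 7. Itga5, the fibronectin receptor chain, was at 1486, 1245, 875 and 934 in wild type and at 2636, 2625, 1344 and 1083 in heterozygotes. Both overlapped between genotypes. Of 12 genes for ligands of the alpha 9 integrin, 7 were higher and 5 lower (median 0.08), and none had an unadjusted p under 0.05.

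Nuclear genes of oxidative phosphorylation were higher in 16 and lower in 9 of 25 (median 0.02), and those of fatty acid oxidation were higher in 13 and lower in 7 of 20 (median 0.09), with 0 passing. Cox7a1, a muscle form of a cytochrome oxidase subunit, had means of 124 ± 47.1 and 47.5 ± 20.4 normalised counts, and Atp5c1, of the ATP synthase, 986 ± 182 and 1393 ± 228 (SD, n = 4 each). Ndufs1, of complex I, had 930 ± 95.4 and 1274 ± 240 and was the 1 gene of these 25 with separate groups, beside 3.13% of all genes. Hadha and Echs1, enzymes of fatty acid oxidation, had log2 differences of 0.44 and 1.12, with overlap.

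Hypoxia and glycolysis genes were lower in 11 and higher in 3 of 14 (median −0.43), with 2 at an unadjusted p under 0.05, both lower. Egln3, an oxygen-sensing prolyl hydroxylase, was at 962, 1061, 919 and 1656 normalised counts in WT 3 to WT 6 and at 468, 567, 649 and 970 in HET 4 to HET 7. Slc2a1, a glucose transporter, was at 668, 577, 539 and 688 in wild type and at 207, 202, 281 and 792 in heterozygotes, HET 7 being the highest library. Pkm, a glycolytic enzyme, was at 2209, 2231, 2094 and 2071 in wild type and at 1448, 2062, 1501 and 1472 in heterozygotes, the 1 member of 14 without overlap, beside 3.13% of all genes.

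Cell cycle genes were lower in 16 and higher in 8 of 24 (median −0.37). WT 4 alone held Ccnb2, a mitotic cyclin, at 1088 normalised counts, beside 42.8 to 175 in the other wild-type libraries and 19.8 to 77.2 in heterozygotes. Mcm2, a replication helicase subunit, had a log2 difference of −0.87 ± 0.44 (SE). Genes of BMP, Notch and Wnt signalling were lower in 16 and higher in 8 of 24 (median −0.17). Axin2, a target of Wnt signalling, was at 442, 473, 229 and 519 in WT 3 to WT 6 and at 251, 224, 215 and 247 in HET 4 to HET 7, with only WT 5 among the heterozygotes. The Notch ligand Dll4 and Wnt5a had log2 differences of −1.74 ± 0.89 and −1.06 ± 0.54. Early response and stress genes were higher in 13 and lower in 7 of 20 (median 0.08), and interferon response genes were higher in 6 and lower in 3 of 9 (median 0.42). Oasl2 of the latter list was at 254 in HET 4 and at 19.6 to 54.9 in the other heterozygotes. No gene in these 4 lists passed or had groups without overlap.

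Markers of other cell types were measured beside these results, and their part in them was not tested. The endothelial list was higher in 10 and lower in 2 of 12 (median 0.52), with a summed level of 8100 to 11218 normalised counts over wild-type libraries and 9391 to 15194 over heterozygous ones. The list of smooth muscle and pericytes was higher in 9 and lower in 4 of 13 (median 0.44), with sums of 21566 to 34268 and 29983 to 44570. Both lists overlapped between genotypes and no member passed. Ptprb and Erg, of endothelium, had log2 differences of 0.74 ± 0.29 and 0.59 ± 0.24 (SE), Flt1 one of 0.65 ± 0.32, and Rgs5, of pericytes, one of 0.65 ± 0.29. Lmod1, of smooth muscle, was at 22.7 in WT 3 and 0 in WT 4, WT 5 and WT 6, and at 66.9, 25.8, 11.2 and 8.65 in HET 4 to HET 7.

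Fibroblast and matrix genes were higher in 11 and lower in 7 of 18 (median 0.08), but their sum varied within each genotype, from 51952 to 169755 normalised counts among wild-type libraries and from 70196 to 165064 among the others. Lox, a collagen cross-linking enzyme, was at 558, 304, 58.7 and 72.2 in WT 3 to WT 6 and at 252, 802, 248 and 344 in HET 4 to HET 7. Of 13 genes of endocardium and valve, 9 were higher and 4 lower (median 0.14). Vcan, a matrix proteoglycan, was at 6245, 7411, 7035 and 7700 in wild type and at 4589, 4951, 4325 and 5816 in heterozygotes, without overlap. Scx, a tendon and valve factor, was at 9.16 or below in wild type and at 10.3 to 91.7 in heterozygotes, again without overlap. It had only 14 reads over all wild-type libraries and 113 over the heterozygous ones. These 2 of 13 members, 1 lower and 1 higher, stand beside 3.13% of all genes.

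Macrophage genes were higher in 7 and lower in 2 of 9 (median 0.52), and Lyz2 was the 1 member of 9 with separate groups (3.13% of all genes), at 663, 586, 754 and 989 normalised counts in WT 3 to WT 6 and at 245, 365, 211 and 55.3 in HET 4 to HET 7. The macrophage sum was 1132 to 2518 in wild type and 512 to 2911 in heterozygotes. Only 2 of 12 lymphocyte and granulocyte genes were tested, both higher (median 1.85), and one of them, the mast cell protease Mcpt4, was at 0 in all wild-type libraries, HET 6 and HET 7, at 59.3 in HET 4 and at 187 in HET 5. Neuronal genes were lower in 5 and higher in 2 of 7 (median −0.64), with a sum of 151 to 402 in wild type and 149 to 413 in heterozygotes and with Prph and Slc18a3 at 0 in all 8. Genes of Schwann cells and glia were lower in 5 and higher in 2 of 7 (median −0.17). The red cell list had 3 higher and 2 lower (median 0.01), the epicardial list 2 higher and 1 lower (median 0.44), and the adipocyte list 1 tested gene, which was higher (0.60). Upk3b, Msln, Krt19 and Upk1b of epicardium and Adipoq, Plin1, Cfd, Ucp1 and Cidec of adipocytes were at 0 in all 8.

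The difference between the 8 libraries and the 4 under 50% was tested as an interaction of genotype and mitochondrial class in all 12. Of 15899 genes, 0 passed with limma (0.0%) and 0 with edgeR, with 746 and 792 at an unadjusted p under 0.05. Of 15757 genes, 91 (0.578%) had groups without overlap in both classes and in opposite order. The genes with the smallest interaction p were Mybpc2, Itga9, Ogn, Mest and Hif3a. All 4 libraries under 50% are of day 8, so class and age are partly the same division.

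Itga9 was at 2044 and 1523 normalised counts in WT 1 and WT 2 and at 1172 and 1367 in HET 2 and HET 3, so under 50% it lay lower in heterozygotes. Its log2 difference there was −0.48 and its interaction was 2.17 ± 0.38 (SE; limma, adjusted p = 0.209). Mybpc2 was at 650 and 495 in WT 1 and WT 2 and at 105 and 98.6 in HET 2 and HET 3, with an interaction of 4.13 ± 0.65 (adjusted p = 0.101). Wild-type levels of Itga9 and Mybpc2 under 50% were above those of all wild-type libraries over 50%. Ogn and Mest, of matrix and imprinted genes, had log2 differences of 0.73 and 0.55 over 50% and of −1.87 and −1.52 under it, and Hif3a one of −1.03 over and 2.79 under.

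Hcn4 was at 2022 and 1687 normalised counts in WT 1 and WT 2 and at 1660 and 1589 in HET 2 and HET 3, a log2 difference of −0.19. Its interaction was −1.52 ± 0.47 (SE; limma, adjusted p = 0.998). Cacna2d2 had a difference of 0.03 under 50% and an interaction of −1.25 ± 0.45, and Tbx3 had 0.38 and −0.74 ± 0.35 (adjusted p = 0.998 for both). Neither was shown to differ between classes. Ryr2 was at 7153 and 7615 in WT 1 and WT 2 and at 13766 and 11930 in HET 2 and HET 3. Its log2 difference of 0.80 lay near the 0.88 over 50%, with an interaction of 0.09 ± 0.29 (SE; limma, adjusted p = 0.998). Heterozygous Ryr2 stood above wild type without overlap in each class. Groups of 2 against 2 libraries under 50% are often separate by chance, and the share of all genes with this pattern was not counted.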

How the data were processed

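RNA was measured in 12 libraries of laser-captured atrioventricular node, from 5 consecutive sections of 8 µm each per the labels' protocols. The submitters' processing notes name STAR, mm10 and DESeq2. Tool versions, annotation, read counting and strandedness are not given in the sources read. The deposited values are a signal, namely each gene's reads divided by the authors' size factor for that library. All values above 0.1 were whole multiples of 1 read (100%, tolerance 0.001), so reads were recovered. Deposited values of 0.1 stand for 0 and were treated as 0. The limit at 3 reads covers counting error only. The 95% intervals given are those of the limma fit and rest on the spread between libraries. The table holds 41128 genes, of which 40254 (97.9%) were given symbols by identifier, and 37 are mitochondrial.

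The members and gene lists were chosen with earlier results of these data known. Groups were taken from the library titles. The test was limma 3.58.1 in R 4.3.3 (trend option), run for the 15757 genes whose mean in these 8 libraries reached 10, on log2(value + 1), which understates the change of low genes, heterozygous minus wild type, two-sided, with Benjamini-Hochberg adjustment over all of them and a threshold of 0.05. The interaction with mitochondrial class was fitted on all 12 libraries. The 29 lists (474 genes) were described by counts and medians only. Named genes were Tbx3, the 4 listed genes, up to 15 genes per direction past the threshold or, where fewer than 10 passed, those with the smallest p up to 10 (mean of at least 50, official symbol), the 3 members of each list with the smallest p, 5 interaction genes and 5 genes most like Hcn4 and Ryr2. Some of these are not reported here, and exceptions are marked as named after their values were seen. edgeR 4.0.16, DESeq2 1.42.0 and voom on the recovered reads were alternatives, as were other filters, scalings, terms and subsets. On simulated counts for the 8-library comparison (15177 genes) 17% of the 2-fold and 48% of the 4-fold changes were recovered, with 7 false calls. For the interaction (15383 genes) 0% and 8% were recovered, with 0 false calls. Each simulation was a single draw with 100 genes changed at each size, all with a mean of at least 50. Recovery of lower genes was therefore not measured, and no effect of age or mitochondrial share was simulated. Exact permutation tests used scipy 1.17.1 and figures matplotlib 3.10.9.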

Additional observations from a re-analysis of the deposited data

Results flagged for a closer look

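In single genotype groups of 4, the highest or lowest library stood far from the other 3 (beyond Dixon's 95% limit) in 16 of 160 groups, over 80 genes. For independent, normally distributed values chance gives about 1 in 20 groups. Normalised counts need not be so distributed, most of these genes were named for a small p, and all share the same libraries. The 16 of 160 therefore cannot be set against that rate. HET 7 stood above the other heterozygotes for Gria2 (25.9 normalised counts), Pkp2 (6544), Slc2a1 (792) and Flt1 (1619). WT 3 stood above the other wild-type libraries for Xirp2 (23901), Flt1 (1145) and Lmod1 (22.7) and below them for Ehbp1 (748). WT 4 stood high for Ccnb2 (1088), Wnt5a (710) and Tbx3os1 (256), and WT 5 for Cacna1d (4318). HET 5 was low for Ntm (238) and high for Pkm (2062), HET 6 was high for Hand1 (37.6) and HET 4 for Oasl2 (254).

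For 9 of the 80 named genes the genotypes did not overlap in either class of libraries and lay in opposite order. Over all genes tested 91 did so (0.578%), out of 493 without overlap in the 8 libraries. Most of the 80 were named for a small p, which favours separate groups. Their share therefore cannot be set against that of all genes. The class under 50% has only 2 libraries of each genotype. The log2 difference under 50% mitochondrial signal was −0.48 for Itga9, −0.58 for Tnik, −0.90 for Tlr4, −2.47 for Mybpc2, −0.67 for Dact1, −0.23 for Ndufs1 and −0.53 for Plk2, against positive differences over 50%. It was 1.26 for Gja5 and 0.15 for Vcan, against negative differences over 50%. With limma the interaction of these genes had an adjusted p of 0.101 for Mybpc2, 0.209 for Itga9 and 0.998 for the others.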

How the results depend on the processing

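The count of genes called for genotype, 1 with all 8 libraries, was 0 without a filter on low values, 0 when scaled to reads outside mitochondrial genes, 0 with edgeR, 0 with an age term, 0 with the mitochondrial share as a term, 0 at day 10 only, 0 in all 12 libraries and 0 with libraries over 55% only. Chosen after seeing the data were HET 5 and HET 6 as the only heterozygotes (0) and leaving out libraries with Y-linked reads (0). DESeq2 called 32 and library weights 6. Leaving out 1 library gave 0 to 1 calls, and 1 was called only without HET 7. WT and HET share the replicate numbers 4, 5 and 6, whose libraries had deviations correlated at 0.031, −0.124 and 0.116. Pairs with unlike numbers ran from −0.124 to 0.111. These few values cannot decide whether equal numbers mean a pairing. WT 5 was of day 8 and HET 5 of day 10, so number 5 does not join libraries of equal age. With the replicate block in these 6 libraries 6 genes were called, and without it 1. The interaction gave 0 to 1 calls when 1 library was left out, with 1 only without WT 3 (Mybpc2). Itga9 kept a log2 difference of 0.96 to 1.91 in 28 alternatives and passed in 11. Over 79 gene results, 2241 of 2285 alternative values kept direction and side of the threshold, and 22 newly passed. Only Itga9 passed with all 8 libraries, so any other gene kept its side by staying uncalled. The 17 values that no longer passed were all of Itga9. In 5 values the direction reversed. Those were Nexn with the share term (−0.022), Lox at day 10 only (−0.0019), and Ogn (−0.14), Mest (−0.14) and Hif3a (0.24) in all 12 libraries. The interaction of Ryr2 was −0.0028 with an age term and −0.017 to 0.22 with 1 library left out. The causes were not tested. Of 784 alternative list medians, 745 moved by less than the spread between libraries and 39 by more, among them the nodal median with HET 5 and HET 6 only (−0.71).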

Other observations

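Itga9, Hcn4 and Cacna2d2 all lie on chromosome 9, where groups did not overlap for 23 of 858 genes tested (2.68%, beside 3.13% of all genes). Within 500 kb of Hcn4, Cacna2d2 and Itga9, groups did not overlap for 0 of 8, 0 of 26 and 0 of 9 tested neighbours. Near Tbx3 the count was 0 of 6. Near Ryr2 it was 1 of 7, namely Heatr1, a ribosome biogenesis factor, with means of 89.1 and 209 normalised counts in wild type and heterozygotes. Heatr1 was picked out after its values were seen. Near Tbx3 the genes Tbx3os1, Gm16063 and Tbx5 had lower values in heterozygotes (unadjusted limma p 0.0496, 0.0791 and 0.0872). Tbx3os2 and Gm10390 had higher ones (0.0831 and 0.0469) and Rbm19 a lower one (0.572). On chromosome 5, which carries Tbx3, 76 of 948 genes tested (8.02%) had an unadjusted p under 0.05, beside 908 of all 15757. Of the 948, 32 (3.38%) had groups without overlap. These values were also picked out after being seen, and their cause was not tested.

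WT 5 was low both in Xist (60.8 normalised counts) and in Ddx3y (2.10), Kdm5d (14.7) and Uty (4.19), whereas the other 7 libraries were high in one or the other.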
